A study of Mus musculus with 24 samples.

Results

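RNA-seq counts of 33 heart muscle and cardiac development genes were examined in whole E13.5 mouse embryos with or without zygotic *Zfp57*. The members were taken from a list of symbols: 8 genes of the thick filament and titin, 5 of the thin filament, 2 of the Z-disc and muscle LIM group, 4 of calcium handling, 2 natriuretic peptides, 3 of gap junctions and pacemaking, and 9 cardiac transcription factors. All 33 were among the 34745 genes of the deposited table, and all 33 passed the filter on low counts that left 16026 genes. Loss of both maternal and zygotic *Zfp57*, which encodes a zinc finger protein that keeps DNA methylation at imprinted regions, is known for heart defects, and the question was whether heart genes differed between the genotypes.

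The embryos came from *Zfp57*-/- mothers of the 129 strain and *Zfp57*+/- fathers, termed DBA*, mainly of the DBA/2J background. The 6 M-Z+ embryos (*Zfp57*-/+) had no maternal *Zfp57* and inherited a wild-type allele from the father, and the 6 M-Z- embryos (*Zfp57*-/-) had neither maternal nor zygotic *Zfp57*. Embryos of both groups therefore lacked maternal *Zfp57*, and wild-type embryos were not part of the comparison. Each library was made from the total RNA of 1 whole embryo. Sex, litter and batch were not in the labels. Libraries held 12347383 to 19216288 counts in M-Z+ and 12005145 to 14617373 in M-Z- embryos. *Zfp57* itself had a level of 19.1 to 40.8 CPM, read counts scaled to library size, in M-Z+ and 17.8 to 27.8 CPM in M-Z- embryos. The deposited counts are 1 value per gene, without exons or alleles, so they do not check the genotype labels. Why M-Z- embryos had this level of *Zfp57* was not tested. In a whole embryo, fewer cells of a type and less RNA per cell cannot be told apart.

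The embryonic heart contracts by myosin thick filaments sliding along actin thin filaments. Calcium released through the ryanodine receptor binds troponin on the thin filament, and the calcium pump of the sarcoplasmic reticulum takes it back up. Titin spans the sarcomere from Z-disc to M-line. GATA, NKX2-5, T-box, HAND and MEF2 factors switch on these genes in heart progenitors, and working muscle of the early chambers also makes natriuretic peptides. Several members are not specific to the heart. For example, *Actc1*, *Tnnc1*, *Tnni1* and *Mef2c* are also used by developing skeletal muscle, *Gja1* by many tissues, and *Gata4*, *Gata6*, *Hand1* and *Hand2* by other organs. These examples are not a full list, and how much of each member's level came from the heart was not tested.

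The regulatory sequence before the start of the natriuretic peptide genes is shown because both genes had lower estimates in M-Z- embryos, that of *Csrp3* because it had the lowest p of the members, and that of *Myl7* because it is an atrial gene of similar level. Each window is from RefSeq (GRCm38.p6), runs from 250 bases before to 50 bases after the start of the gene, and is written 5′ to 3′ on the strand of the gene, with capitals at the searched motifs. *Nppa* lies at chr4:148000472-148000771 (+), *Nppb* at chr4:147985650-147985949 (+), *Csrp3* at chr7:48848002-48848301 (-) and *Myl7* at chr11:5898733-5899032 (-).
*Nppa*: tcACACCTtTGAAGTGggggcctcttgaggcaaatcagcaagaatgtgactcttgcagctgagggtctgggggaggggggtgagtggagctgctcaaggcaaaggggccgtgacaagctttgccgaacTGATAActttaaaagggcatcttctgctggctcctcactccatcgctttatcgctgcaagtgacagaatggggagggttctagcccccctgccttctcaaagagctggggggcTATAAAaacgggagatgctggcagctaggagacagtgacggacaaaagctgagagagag
*Nppb*: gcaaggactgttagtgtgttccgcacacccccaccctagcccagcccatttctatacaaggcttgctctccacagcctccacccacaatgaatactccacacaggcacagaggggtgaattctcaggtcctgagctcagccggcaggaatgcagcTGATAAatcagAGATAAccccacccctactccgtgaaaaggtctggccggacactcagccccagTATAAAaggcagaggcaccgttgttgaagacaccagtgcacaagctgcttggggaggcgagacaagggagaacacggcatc
*Csrp3*: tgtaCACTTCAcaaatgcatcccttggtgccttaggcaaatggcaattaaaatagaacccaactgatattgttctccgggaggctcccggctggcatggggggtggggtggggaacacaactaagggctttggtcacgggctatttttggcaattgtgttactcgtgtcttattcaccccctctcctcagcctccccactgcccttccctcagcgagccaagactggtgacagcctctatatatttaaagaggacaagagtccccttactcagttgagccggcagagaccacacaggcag
*Myl7*: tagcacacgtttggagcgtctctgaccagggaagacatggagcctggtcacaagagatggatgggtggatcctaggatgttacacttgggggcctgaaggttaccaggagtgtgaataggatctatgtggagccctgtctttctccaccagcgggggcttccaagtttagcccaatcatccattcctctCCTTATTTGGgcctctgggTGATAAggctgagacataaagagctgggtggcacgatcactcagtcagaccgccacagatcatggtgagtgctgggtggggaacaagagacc

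Motifs were searched on both strands. A GATA match was AGATAA or TGATAA. An NKX2-5 match was TNAAGTG, with N for any base. A T-box match was AGGTGT, and a HAND E-box was CATCTG. The MEF2 and CArG motifs had their usual definitions, and TATAAA was searched on the strand of the gene only. A CArG or MEF2 match can hold TATAAA within it, although none of those in the members did, and single matches may touch. The *Nppa* window held a T-box match 248 bases, an NKX2-5 match 241 bases, a GATA match 122 bases and a TATAAA 9 bases before the start. The neighbouring *Nppb* window held GATA matches 95 and 84 bases and a TATAAA 31 bases before the start, and no NKX2-5 or T-box match. The *Csrp3* window shown held 1 NKX2-5 match 246 bases before the start, and a second RefSeq window of this gene, not shown, held a T-box match 164 bases before its start, whereas in *Myl7* a CArG match lay 61 bases and a GATA match 42 bases before it. Of the members, 27 had a window in RefSeq, and 10 of these (37.0%) held a GATA match, against 21.0% of all 27025 genes with a window. The CArG motif was found in 3 members (11.1% against 1.81%) and MEF2 in 2, *Mybpc3* and *Ttn* (7.41% against 0.636%). T-box (22.2% against 15.7%), NKX2-5 (11.1% against 13.1%) and HAND E-box matches (14.8% against 19.2%) were found in 6, 3 and 4 members, and TATAAA in 5 (18.5% against 9.77%). These shares describe letters in the windows, and a match is not a measured binding site.

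No member passed the test between M-Z- and M-Z+ embryos. By edgeR's quasi-likelihood test, with p adjusted over the whole table by the Benjamini-Hochberg method, 0 of 33 members had an adjusted p below 0.05 with a log2 fold change beyond 0.5, where 0.0811% of all tested genes were called. At an unadjusted p below 0.05 there were 4 members, *Gata4* and *Tbx20* with higher and *Csrp3* and *Nppa* with lower values in M-Z- embryos, which is 12.1% of the members against 6.7% of all tested genes (3.44% higher and 3.26% lower). Leaving out 1 library gave 2 (without M-Z+ embryo 1 or M-Z- embryo 2) to 6 such members (without M-Z+ embryo 6 or M-Z- embryo 1). *Csrp3* and *Gata4* were among them in all 12 of these fits, *Tbx20* in 4 and *Nppa* in 3. With the fold limit added to all libraries there was 1 such member, *Tbx20*, against 1.54% of tested genes. DESeq2 also called 0 members, against 0.231% of tested genes, and at its unadjusted p had the same 4, against 6.98%. For no member were the 6 M-Z- values all above or all below the 6 M-Z+ values, against 0.574% of tested genes whose groups did not overlap. The estimate was above 0 for 25 of 33 members, with a median log2 fold change of 0.15, beside -0.0072 for all tested genes, of which 48.25% were above 0. Without M-Z- embryo 2 that median was 0.095, and with the length slope of the libraries in the fit, described further on, it was 0.084. Nothing in the labels says that the 6 libraries of a group came from separate litters, and the p-values measure the spread between these embryos.

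**Figure D1:**
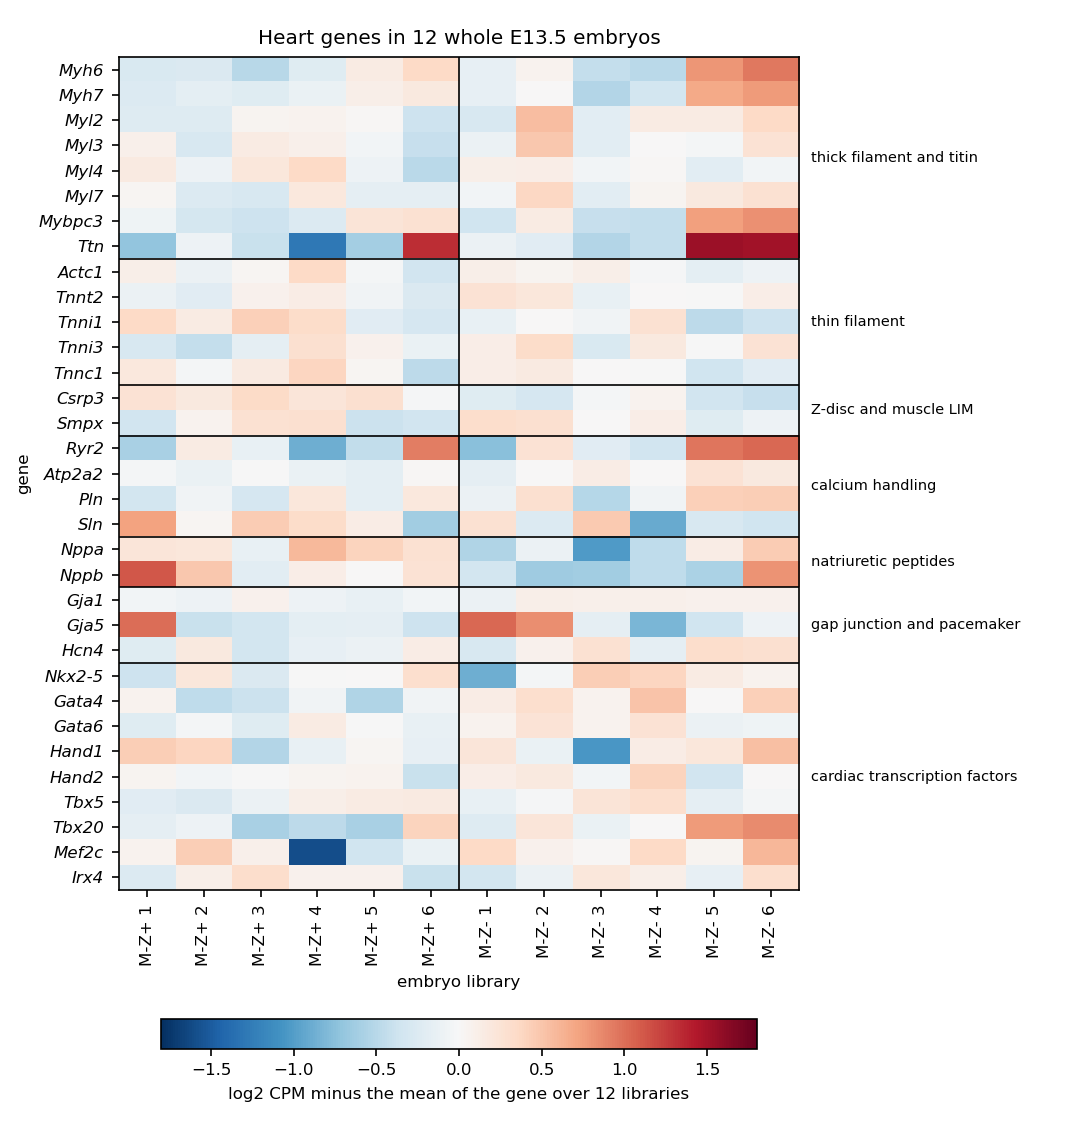
Level of each of the 33 genes in each of the 12 libraries, as log2 CPM minus the mean of the gene over the libraries (colour), with genes in rows by role and M-Z+ embryos left of the line. *Ttn*, *Ryr2*, *Myh6*, *Myh7*, *Mybpc3* and *Tbx20* were highest in M-Z+ embryo 6 and M-Z- embryos 5 and 6.

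**Figure D2:**
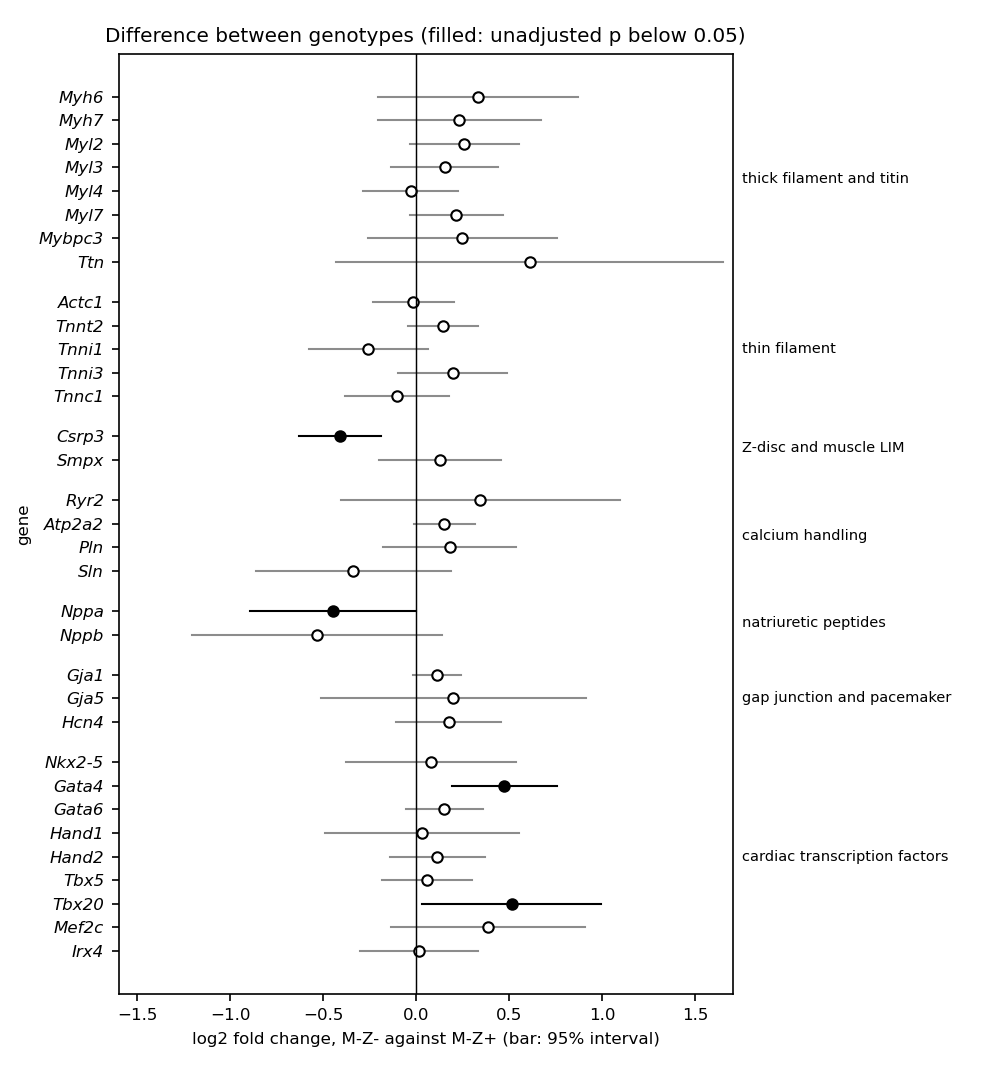
Log2 fold change of each gene in M-Z- against M-Z+ embryos (circle) with its 95% interval (bar), by role, from edgeR. Filled circles mark *Csrp3*, *Gata4*, *Tbx20* and *Nppa*, whose unadjusted p was below 0.05, and none of the 33 passed the adjusted threshold.

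Of the thick filament genes, 7 of 8 had a higher estimate in M-Z- embryos, with a median log2 fold change of 0.24, and none passed the test. With the length slope in the fit, *Myh6*, *Myh7*, *Mybpc3* and *Ttn* had estimates below 0. *Myh6*, the alpha myosin heavy chain of the atria, had 42.2 to 77.1 CPM in M-Z+ embryos (median 50.8) and 42.9 to 115.7 CPM in M-Z- embryos (median 58.4). The groups overlapped over almost the whole M-Z+ range, and the high values belonged to M-Z- embryos 5 and 6, with 103.9 and 115.7 CPM. It differed by a log2 fold change of 0.33 (SE 0.25, adjusted p = 0.759 by edgeR's quasi-likelihood test). *Myh7*, the beta heavy chain, lies next to *Myh6* on chromosome 14 and had a log2 fold change of 0.23, from 99.2 to 133.3 CPM in M-Z+ and 81.7 to 199.8 CPM in M-Z- embryos.

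Reads of *Myh6* and *Myh7* may not be cleanly separated. Their longest coding sequences in GENCODE M1 were identical at 91.7% of 5803 aligned bases, and the longest run without a difference was 245 bases, at positions 4246 to 4490 of the *Myh6* and 4240 to 4484 of the *Myh7* coding sequence. The run is shown because a read that lies inside it fits both genes.
*Myh6* and *Myh7*: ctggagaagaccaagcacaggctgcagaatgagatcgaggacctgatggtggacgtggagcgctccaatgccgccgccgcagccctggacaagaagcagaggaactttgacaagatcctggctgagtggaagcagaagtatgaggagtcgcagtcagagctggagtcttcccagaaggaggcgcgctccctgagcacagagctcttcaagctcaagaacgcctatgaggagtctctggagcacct

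As a share of *Myh6* plus *Myh7* CPM, *Myh6* made up 29.4% to 36.6% in M-Z+ embryos (median 32.9%) and 31.4% to 36.7% in M-Z- embryos (median 35.0%), so both heavy chains varied together across the libraries. This and the other ratios below were chosen after the values were seen and were not tested.

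The regulatory light chains differed less between embryos. *Myl2*, of the ventricle, had 42.7 to 57.8 CPM in M-Z+ (median 51.4) and 45.3 to 81.1 CPM in M-Z- embryos (median 61.0), a log2 fold change of 0.26 (SE 0.14, adjusted p = 0.749 by edgeR). *Myl7*, of the atrium, had 12.8 to 17.8 CPM in M-Z+ (median 14.0) and 13.7 to 20.2 CPM in M-Z- embryos (median 16.9), a log2 fold change of 0.21 (SE 0.12, adjusted p = 0.749 by edgeR). Both were highest in M-Z- embryo 2, and the ratio of atrial *Myl7* to ventricular *Myl2* was 0.223 to 0.340 in M-Z+ and 0.249 to 0.334 in M-Z- embryos. The essential light chains *Myl3* and *Myl4* had log2 fold changes of 0.15 and -0.03, and myosin binding protein *Mybpc3* had 0.25. *Myl3* overlaps *Pth1r*, which had a median of 76.3 CPM, so reads of both may have been divided between them.

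*Ttn* varied more than any other member, 7.04-fold between its highest and lowest library. It had 37.8 to 230.1 CPM in M-Z+ (median 64.8) and 63.6 to 265.7 CPM in M-Z- embryos (median 82.4). The values fell into a low set of 9 libraries up to 86.1 CPM and a high set of 3, M-Z+ embryo 6 and M-Z- embryos 5 and 6, with nothing in between. Its log2 fold change of 0.61 had a 95% interval from -0.43 to 1.65 (SE 0.48, adjusted p = 0.763 by edgeR). It was 1.15 without M-Z+ embryo 6, and 0.30 and 0.31 without M-Z- embryo 5 or 6.

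Of the thin filament genes, 2 of 5 had a higher estimate, with a median of -0.02. *Actc1*, cardiac alpha actin, was the most abundant member per length, with a median of 876 TPM, a level scaled to gene length and library size, over the 12 libraries. It had 314 to 510.4 CPM in M-Z+ (median 397.8) and 354.2 to 429.4 CPM in M-Z- embryos (median 403.1). Its log2 fold change was -0.02 with a 95% interval from -0.23 to 0.20 (SE 0.10, adjusted p = 0.969 by edgeR), and the M-Z- range lay inside the M-Z+ range. *Tnnt2*, cardiac troponin T, had 99.0 to 129.7 CPM in M-Z+ (median 111.4) and 107.9 to 141.4 CPM in M-Z- embryos (median 123.8), and 5 of 6 M-Z- values exceeded the M-Z+ median. Its log2 fold change of 0.14 had a 95% interval from -0.04 to 0.33 (SE 0.09, adjusted p = 0.753 by edgeR).

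The 2 troponin I genes had estimates of opposite sign. The slow skeletal form *Tnni1*, which the fetal heart uses before the cardiac form, had a log2 fold change of -0.26, and the cardiac form *Tnni3* had 0.20. The ratio of *Tnni1* to *Tnni3* CPM was 3.87 to 7.34 in M-Z+ (median 5.86) and 3.02 to 5.40 in M-Z- embryos (median 3.83), with overlapping groups. *Tnni1* is also used by developing skeletal muscle, so this ratio is not one of the heart alone. With the length slope in the fit, *Tnni1* had a log2 fold change of -0.10 and *Tnni3* 0.25. Troponin C, *Tnnc1*, had -0.10 and shares its locus with *Nisch*, which had a median of 391.7 CPM, so reads of both may have been divided between them.

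*Csrp3* had the smallest p of the members. It encodes a muscle LIM protein of the Z-disc, and the table places it on chromosome 7, from position 48830398 to 48848051. Its level was 13.7 to 17.5 CPM in M-Z+ (median 16.3) and 10.4 to 14.5 CPM in M-Z- embryos (median 11.6). The groups overlapped, since M-Z+ embryo 6 lay below the highest M-Z- value, but all 6 M-Z- values were below the M-Z+ median. The log2 fold change of -0.41 had a 95% interval from -0.63 to -0.19 (SE 0.10, unadjusted p = 0.0013, adjusted p = 0.451 by edgeR's quasi-likelihood test), and the two-sided exact permutation test over all 924 divisions of the libraries gave p = 0.0043. *Smpx*, a small muscle protein on the X chromosome, had a log2 fold change of 0.13.

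*Ryr2*, the cardiac ryanodine receptor that releases calcium from the sarcoplasmic reticulum, had 6.80 to 23.7 CPM in M-Z+ (median 10.3) and 7.40 to 25.5 CPM in M-Z- embryos (median 12.9). The same 3 libraries that were high for *Ttn* held its 3 highest values, and the log2 fold change was 0.34 (SE 0.35, adjusted p = 0.792 by edgeR). The calcium pump *Atp2a2* had 0.15 and its inhibitor *Pln*, phospholamban, had 0.18. Sarcolipin, *Sln*, another inhibitor of the pump, had -0.34 with values from 3.43 to 10.6 CPM.

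Both natriuretic peptides had lower estimates in M-Z- embryos, and neither passed the adjusted threshold. *Nppa*, atrial natriuretic peptide, had 14.0 to 23.0 CPM in M-Z+ (median 18.2) and 7.57 to 21.1 CPM in M-Z- embryos (median 12.7). Of the M-Z- embryos, 5 of 6 lay below the M-Z+ median and M-Z- embryo 6 lay within the upper part of the M-Z+ range. The log2 fold change was -0.45, with a 95% interval from -0.89 to -0.003 (SE 0.21, unadjusted p = 0.049, adjusted p = 0.746 by edgeR), and the exact permutation test gave p = 0.061. *Nppb*, brain natriuretic peptide, had 0.913 to 2.26 CPM in M-Z+ (median 1.19) and 0.670 to 1.83 CPM in M-Z- embryos (median 0.731). It was counted only 8 to 28 times per library, its log2 fold change was -0.53 (SE 0.31, adjusted p = 0.749 by edgeR), and the single high M-Z- value was again embryo 6.

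Relative to atrial *Myl7*, *Nppa* had a CPM ratio of 1.10 to 1.45 in M-Z+ (median 1.31) and 0.552 to 1.12 in M-Z- embryos (median 0.703). Only the highest M-Z- ratio, 1.12, reached the lowest M-Z+ ratio. The ratio of *Nppa* to *Nppb*, which are neighbours on chromosome 4, was 7.93 to 20.3 in M-Z+ and 11.3 to 24.0 in M-Z- embryos.

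The gap junction and pacemaker genes had estimates between 0.11 and 0.20. *Gja1*, connexin 43, had 202.8 to 236.6 CPM in M-Z+ and 207.8 to 240.2 CPM in M-Z- embryos, a log2 fold change of 0.11 with a 95% interval from -0.02 to 0.24. It had the narrowest spread of the members, 1.18-fold between the highest and the lowest library. *Hcn4*, the pacemaker channel, had a log2 fold change of 0.17. *Gja5*, connexin 40 of the atria and conduction system, had 30.5 to 34.9 CPM in M-Z+ embryo 1 and M-Z- embryos 1 and 2, and 9.60 to 15.9 CPM in the other 9 libraries. The deposited table gives it a span of 172.7 kb where RefSeq gives 21.2 kb, and 4 other genes lie in that span, so its counts may hold reads of other transcripts.

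All 9 cardiac transcription factors had an estimate above 0, with a median log2 fold change of 0.11, and none passed the adjusted threshold, though *Hand1*, *Irx4*, *Nkx2-5* and *Tbx5* changed sign under at least 1 alternative. *Gata4*, a zinc finger factor of heart, endoderm and gonad that lies on chromosome 14, had 8.13 to 12.4 CPM in M-Z+ (median 10.2) and 11.9 to 16.9 CPM in M-Z- embryos (median 13.7). The groups overlapped by 1 M-Z+ embryo, and all 6 M-Z- values were above the M-Z+ median. The log2 fold change of 0.47 had a 95% interval from 0.19 to 0.76 (SE 0.13, unadjusted p = 0.0031, adjusted p = 0.586 by edgeR), and the exact permutation test gave p = 0.0065. *Gata6*, which acts beside *Gata4*, had a log2 fold change of 0.15 with a 95% interval from -0.06 to 0.36.

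*Tbx20*, a T-box factor of the chambers and valves, had 7.80 to 15.5 CPM in M-Z+ (median 9.44) and 9.97 to 21.1 CPM in M-Z- embryos (median 12.7). All 6 M-Z- values were above the M-Z+ median, but the 3 highest values of the 12 were those of M-Z+ embryo 6 and M-Z- embryos 5 and 6. The log2 fold change was 0.51 (SE 0.22, unadjusted p = 0.039, adjusted p = 0.744 by edgeR), and the exact permutation test gave p = 0.095.

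*Nkx2-5*, the homeobox factor of early heart muscle, was counted only 15 to 54 times per library. It had 1.77 to 2.81 CPM in M-Z+ (median 2.28) and 1.25 to 3.11 CPM in M-Z- embryos (median 2.46). Its log2 fold change of 0.08 had a 95% interval from -0.38 to 0.54 (SE 0.21, adjusted p = 0.923 by edgeR), which spans differences in both directions. *Tbx5*, of the atria and left ventricle and also of the forelimb, had 13.5 to 18.0 CPM in M-Z+ (median 16.2) and 14.4 to 19.96 CPM in M-Z- embryos (median 15.9), a log2 fold change of 0.06 (SE 0.11, adjusted p = 0.899 by edgeR). *Hand1*, *Hand2* and *Irx4*, factors of chamber identity, had 0.03, 0.11 and 0.01. *Mef2c* had 0.39 with a 95% interval from -0.13 to 0.91, and its lowest value, 24.9 CPM in M-Z+ embryo 4, lay below the 58.6 to 113 CPM of all other libraries.

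**Figure D3:**
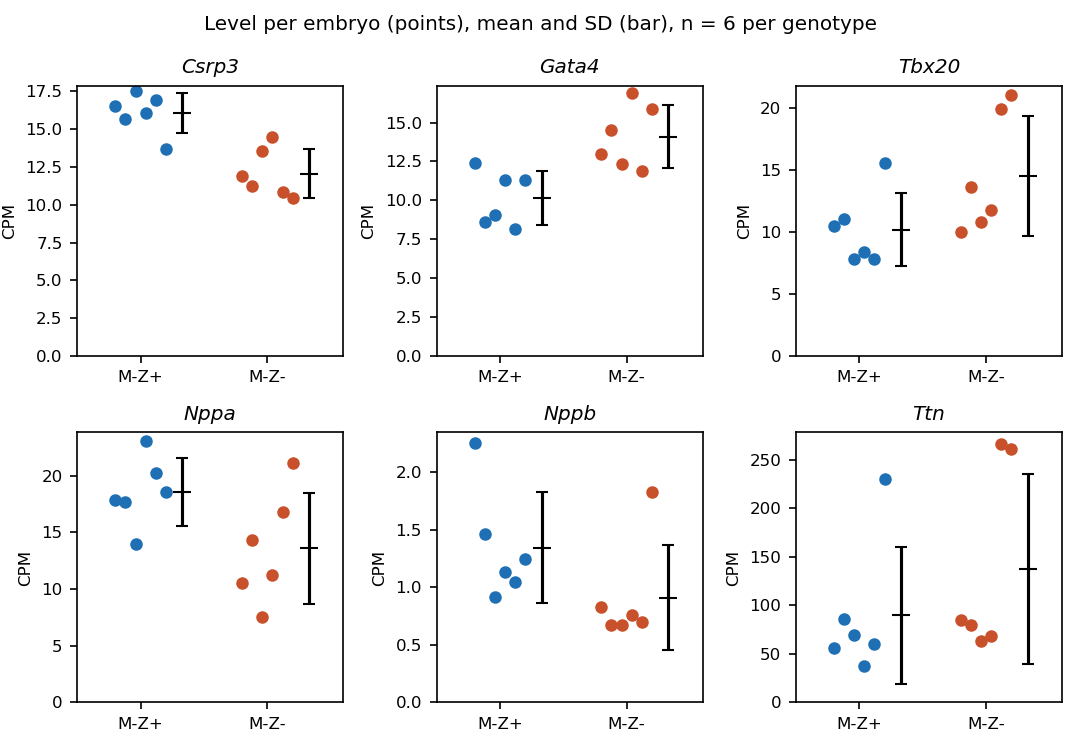
CPM of *Csrp3*, *Gata4*, *Tbx20*, *Nppa*, *Nppb* and *Ttn* in each embryo (points), with the mean and SD of 6 embryos per genotype (bars). *Csrp3* and *Gata4* overlapped at few embryos, *Nppa* and *Nppb* by their high M-Z- values, and *Ttn* held 1 high M-Z+ and 2 high M-Z- embryos.

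The libraries differed in how level depended on gene length, and several long members were highest in the libraries where it rose most steeply with length. The slope of a line through log2 CPM plotted against log2 length over the tested genes was 0.668 in M-Z+ embryo 6 and 0.660 and 0.670 in M-Z- embryos 5 and 6, whereas in the other 9 libraries it was 0.437 to 0.567. These 3 libraries held the 3 highest values of *Myh6*, *Myh7*, *Mybpc3*, *Ttn*, *Ryr2* and *Tbx20*, and the 3 lowest of *Tnni1* and *Tnnc1*. Of all tested genes, 14.4% had these libraries highest and 12.7% lowest. The 6 of 33 members lay a little above the first share and the 2 of 33 below the second. Both differ by few genes, and this was not tested. *Csrp3* also had its lowest values of each genotype there, 13.7 CPM in M-Z+ embryo 6 and 10.9 and 10.4 CPM in M-Z- embryos 5 and 6. Since the slopes fell into separate sets of libraries, no correlation with them is given.

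Members were grouped by the gene length that the FPKM values imply. The 11 shortest, of 515 to 2700 bases, had a median log2 fold change of -0.02. The middle 11 had 0.13, and the 11 longest, of 5565 bases or more, had 0.33. Among the 11 longest, *Tnnt2*, *Mef2c* and *Myl4* had implied lengths 7.97, 6.51 and 5.90 times their longest coding transcripts. In the middle 11 this ratio was 3.75 for *Tnni1* and 3.44 for *Myl2* and *Tnni3*, and in the shortest 11 it was 2.86 for *Myl3*. Each part also held members with a ratio of 1.0, such as *Ryr2*, *Gja1* and *Myl7*. The parts therefore need not follow the length of the transcripts that were read. All tested genes in these length ranges had medians of -0.09, -0.03 and 0.05. With the slope of each library as a covariate the medians of the members became 0.06, 0.08 and 0.13, and without the 3 steep libraries they were -0.03, 0.10 and 0.12. *Ttn* went from 0.61 to -0.06 with the covariate, *Ryr2* from 0.34 to -0.11, *Myh6* from 0.33 to -0.02 and *Tbx20* from 0.51 to 0.23. *Gata4* went from 0.47 to 0.48, *Csrp3* from -0.41 to -0.33 and *Nppa* from -0.45 to -0.57, all with an unadjusted p below 0.05 and none past the adjusted threshold (adjusted p = 0.304, 0.254 and 0.43 by edgeR). What made the slopes differ was not tested.

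With the covariate, 7 of 33 members had an unadjusted p below 0.05, against 9.82% of all tested genes: *Csrp3* and *Nppa* with lower, and *Actc1*, *Gata4*, *Gata6*, *Hand2* and *Tnnt2* with higher estimates. *Tnnt2* had a log2 fold change of 0.20, *Gata6* 0.22, *Hand2* 0.23 and *Actc1* 0.12 in this fit, and 22 of 33 members were above 0. Without the 3 steep libraries, a choice made after the data were seen, *Nppa* had -0.78 and *Nppb* -0.88 (unadjusted p = 0.0014 and 0.023, adjusted p = 0.424 and 0.637 by edgeR). In that fit 5 members had an unadjusted p below 0.05, against 7.84% of tested genes. No adjusted call was gained in either fit. With 2 surrogate variables as covariates, 9 members had an unadjusted p below 0.05, against 10.3%, *Csrp3*, *Gata4*, *Nppa* and *Tbx20* among them, and 0 were called.

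**Figure D4:**
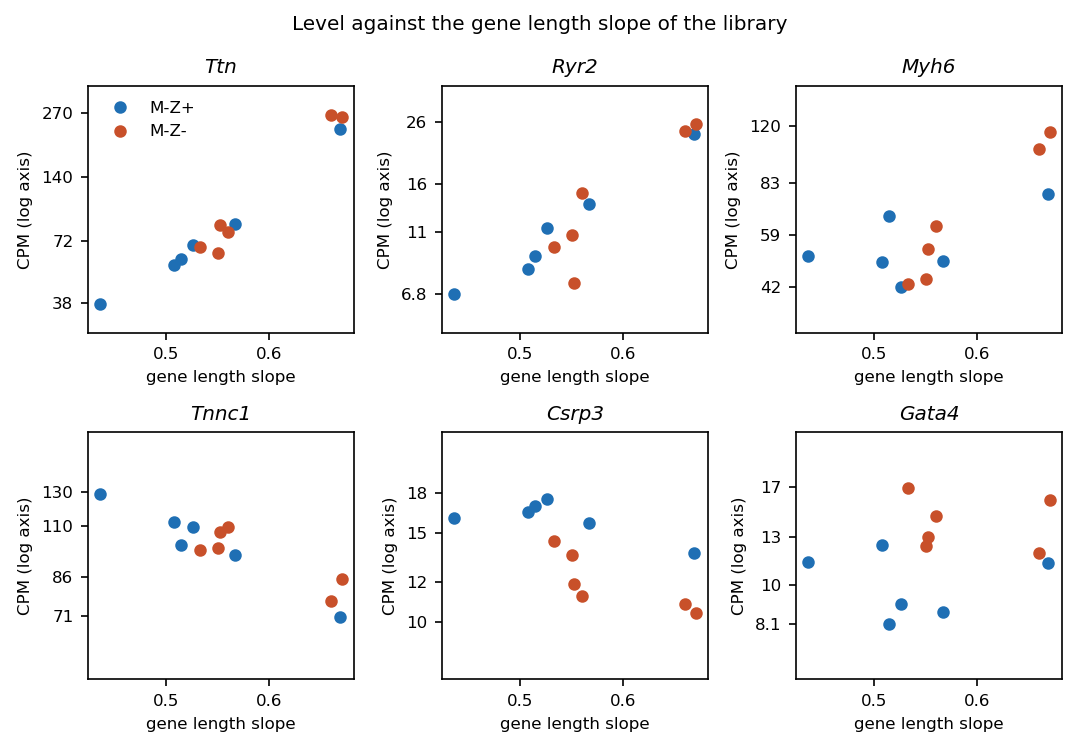
CPM (log axis) of 6 members in each library against the gene length slope of that library, fitted over all tested genes, with M-Z+ in blue and M-Z- in orange. In the 3 libraries with slopes of 0.660 to 0.670, *Ttn* and *Ryr2* were higher, *Tnnc1* was lower, and *Csrp3* had its lowest values of each genotype. *Gata4* was not ordered by the slope.

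**Figure D5:**
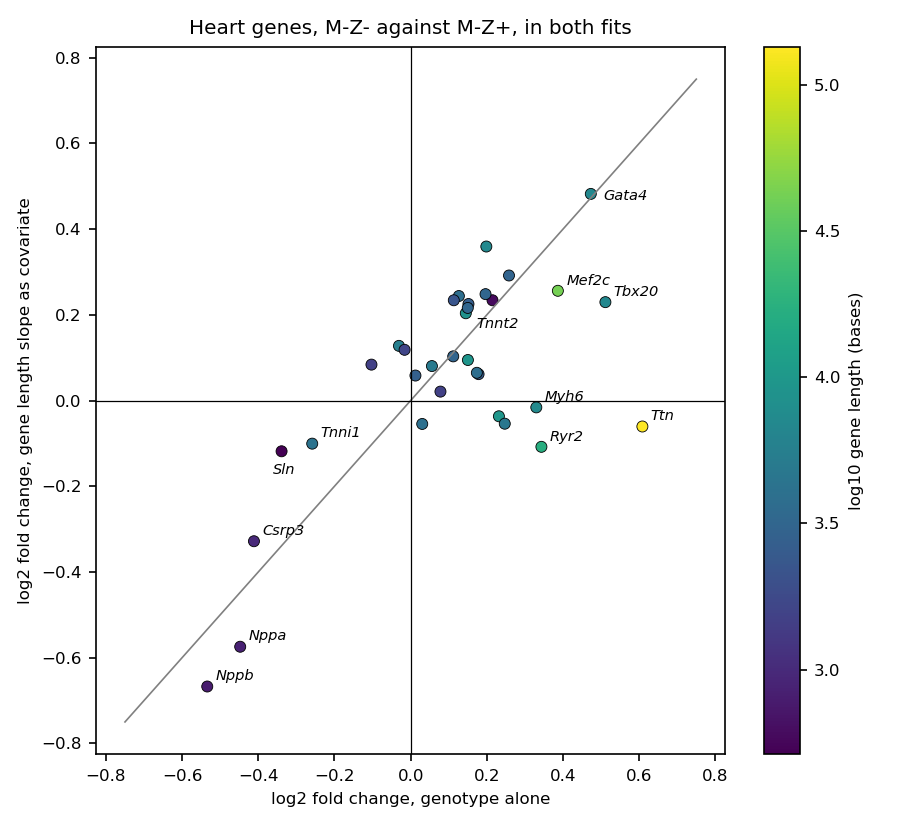
Log2 fold change of the 33 members in the fit on genotype alone (horizontal) and with the gene length slope as covariate (vertical), coloured by log10 gene length, with the diagonal as a line. *Ttn*, *Ryr2* and *Myh6* dropped to -0.06, -0.11 and -0.02, while *Gata4* stayed near the diagonal at 0.48.

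Some pairs of members varied together across the 12 libraries, and others did not. After the mean of each genotype was subtracted, log2 CPM of *Myh6* correlated with that of *Mybpc3* (Pearson r = 0.97) and *Myh7* (r = 0.97), *Myl4* with *Tnnc1* (r = 0.95), *Actc1* with *Tnnc1* (r = 0.94) and *Ttn* with *Ryr2* (r = 0.92), while *Ttn* and *Tnnc1* ran opposite (r = -0.90). These pairs come from the ends of the ranking of all pairs of members, and reads of *Myh6* and *Myh7* may not be cleanly separated. *Tnnt2*, in contrast, had r = -0.07 with *Myh6*, and ranged from -0.70 with *Nkx2-5* to 0.75 with *Myl4*. The 12 points of a pair share their library, depth and gene length slope, and the values are a description. Outside the members, the tested genes closest to *Tnnt2* in this measure were *En1* and *Sh3bgr* (both r = 0.88), *Ccdc181* (r = 0.87), *Coq4* (r = 0.86) and *Hmgn3* (r = 0.85). For *Myl7* they were *Ssbp2* (r = 0.91), *Fam174a*, *1810032O08Rik* (both r = 0.84), *BC035947* (r = 0.83) and *Fam60a* (r = 0.82), and for *Myl2* *Fam81a*, *Mettl10*, *Rdh5*, *Agtrap* and *Gm14057* (r = 0.84 to 0.86). The closest member ranked 67 for *Tnnt2* (*Myl4*), 12 for *Myl7* (*Nppa*, r = 0.79) and 4 for *Myl2* (*Myl3*, r = 0.85). The genes named were picked as the highest of 16026 over only 12 points. Whether any of them is linked to the heart genes was not tested.

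Per length, the order of the members was led by *Actc1*, *Gja1* with a median of 265 TPM, *Tnnc1* with 233, *Atp2a2* with 148 and *Myl7* with 91.8 TPM over the 12 libraries. Among the lowest were *Nppb* with 4.32, *Ryr2* with 2.30, *Hand1* with 2.22 and *Ttn* with 1.95 TPM. The lengths come from the FPKM values and exceed the longest coding transcript of GENCODE M1 for some members, by 7.97 times for *Tnnt2*, 6.51 times for *Mef2c* and 5.90 times for *Myl4*. Where the reads came from shorter transcripts, the TPM of those genes is understated. Which transcripts were read was not tested, and the order among neighbours was not tested.

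Other heart genes outside the members were also examined. Of 56 listed, 52 were tested and 0 were called by edgeR, where 0.0811% of all tested genes were called. At that share a list of this length would seldom hold a call. Of these 52, 5 (9.62%) had an unadjusted p below 0.05, against 6.7% of all tested genes, all with higher estimates (3.44% of all): *Myom1* of the M-line (0.33), *Ldb3* of the Z-disc (0.48), myoglobin *Mb* (0.40), *Zfpm2*, a partner of GATA4 (0.23), and the muscle kinase *Alpk3* (0.22). The estimates were above 0 for 34 of 52, with a median of 0.08, but the groups among them differed. Of the other cardiac transcription factors 5 of 17 were above 0 and 12 below, with a median of -0.06, unlike the 9 member factors. Of the excitation and calcium genes 11 of 12 were above 0 (median 0.16), of the sarcomere and Z-disc genes 12 of 16 (0.08), and of the metabolism and hormone genes 6 of 7 (0.20). These differences between lists were not tested.

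Skeletal muscle, which uses some of the same sarcomere genes, had 0 of 22 tested markers called, against 0.0811% of all tested genes, and a median of 0.02. At an unadjusted p below 0.05 were 2 of them (9.09%, against 6.7%), *Myh8* (0.31) and *Myf5* (0.38). Its most abundant markers by TPM, *Acta1* and *Mylpf*, had log2 fold changes of 0.08 and -0.14, and the summed CPM of the list was 1214 to 1506 in M-Z+ and 1229 to 1441 in M-Z- embryos. *Acta1* and the member *Actc1* were identical at 86.2% of their coding sequence, with no shared run over 29 bases. Smooth muscle markers, led in TPM by *Acta2* (0.04) and *Tagln* (-0.06), had a median of 0.04, with 0 of 8 at an unadjusted p below 0.05.

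No tested marker of endocardium and endothelium or of epicardium and mesothelium was called, where 0.0811% of all tested genes were called. Both lists cover cells outside the heart too, and how much of their level came from the heart was not tested. For endocardium and endothelium, led in TPM by *Cdh5* (0.10) and *Plvap* (0.21), the median was 0.14, and *Kdr* (0.23) and *Tek* (0.33) had an unadjusted p below 0.05, 2 of 9 against 6.7% of all tested genes. Of these 9, 1, *Tek*, had groups that did not overlap, against 0.574%. For epicardium and mesothelium, led in TPM by *Aldh1a2* (-0.15) and *Tcf21* (-0.07), the median was -0.02, with *Wt1* (0.31) below 0.05. The summed CPM was 497.8 to 569.2 in M-Z+ and 550.3 to 622.8 in M-Z- embryos for the endothelial list, and 123.7 to 142.5 and 116.5 to 144.5 for the epicardial list. The part of these cells in the values of the members was not tested.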

How the data were processed

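The 12 RNA-seq libraries were grouped by genotype from the sample labels. Whole-genome bisulfite libraries of 12 further samples were not analysed here. Per gene, the authors deposited raw read counts without normalization as well as FPKM values. FPKM values over 0.01 could all be recomputed from the counts with 1 length per gene, within 0.1%. The submitters' processing notes name HISAT2 2.0.4 and mm10, while the counter and how it used strand were not given in the sources used here. Gene positions of all 33 members overlapped those of RefSeq for GRCm38.p6. Overlapping genes in the table, present for 14 of 33 members, may share reads.

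The counts were tested in edgeR 4.0.16 (R 4.3.3) with TMM normalization, filterByExpr, glmQLFit and glmQLFTest, M-Z- against M-Z+ without covariates. CPM uses TMM library sizes, and TPM was computed from counts and the lengths implied by FPKM. The SE is the log2 fold change divided by the square root of F. Calls needed an adjusted p below 0.05 together with a fold change beyond 0.5 on the log2 scale. The exact permutation test compared mean CPM. The alternatives were DESeq2 1.42.0, RLE size factors, no filter, a mean of at least 50 counts, a replicate block, the gene length slope, 2 surrogate variables from sva 3.50.0, other thresholds, and each library left out in turn. Added after the data were seen were DESeq2 with the slope and a fit without the 3 steep libraries. The members and all gene lists were chosen with earlier results of these data known.

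Named with full values were 10 genes set as representatives of their roles, members with an unadjusted p below 0.05, and the 5 largest fold changes. Of the other heart genes, those with an unadjusted p below 0.05 were named, and of each marker list the 2 most abundant. The other genes named were chosen after their values were seen. No 2 libraries had equal counts for more than 1.63% of genes with a mean of at least 10 counts. Total counts of 12005145 to 19216288 limit the precision of genes with few counts. Duplicates from PCR were not separable from independent molecules. Windows and coding sequences were searched and aligned with Python 3.11.15 and Biopython 1.88, and figures drawn with matplotlib 3.10.9.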

Additional observations from a re-analysis of the deposited data

Results flagged for a closer look

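Of 66 groups of 6 values, 2 for each of the 33 members, 5 had a highest or lowest embryo far from the rest, where chance at 1 in 20 gives 3.3. *Ttn* had 230.1 CPM in M-Z+ embryo 6, above the 37.8 to 86.1 CPM of the other M-Z+ embryos. *Nppb* had 1.83 CPM in M-Z- embryo 6, above 0.670 to 0.831 CPM in the others. *Gja1* had 207.8 CPM in M-Z- embryo 1, below 234.6 to 240.2 CPM. *Gja5* had 34.3 CPM in M-Z+ embryo 1, above 12.9 to 15.3 CPM. *Hand2* had 24.7 CPM in M-Z+ embryo 6, below 31.5 to 34.2 CPM. M-Z+ embryo 6 held 2 of these values and was among the 3 libraries with a steep gene length slope (0.668), and a cause was not tested.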

How the results depend on the processing

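Over 21 alternatives, 0 of the 33 members, of the other heart genes and of the skeletal muscle markers were called in each fit that kept the adjusted p, and the lowest adjusted p of a member was 0.071 (*Csrp3* in DESeq2). The unadjusted p with the fold limit gave 1 member, *Tbx20*. A mean of at least 50 counts left 30 members. Of 690 values of single members, 44 had the opposite sign, over 13 members, and 20 members kept their sign throughout. With the length slope as covariate in edgeR and then in DESeq2, log2 fold changes of opposite sign were those of *Myh6* (-0.016 and -0.023), *Myh7* (-0.037 and -0.042), *Myl4* (0.13 and 0.12), *Mybpc3* (-0.054 and -0.061), *Ttn* (-0.061 and -0.065), *Actc1* (0.12 in both), *Tnnc1* (0.084 and 0.081), *Ryr2* (-0.11 in both) and *Hand1* (-0.055 and -0.061). With 2 surrogate variables they were those of *Myl4* (0.061), *Actc1* (0.083) and *Tnnc1* (0.0091). Without the 3 steep libraries they were *Myh6* (-0.039), *Myh7* (-0.12), *Mybpc3* (-0.11), *Hand1* (-0.21) and *Irx4* (-0.11). Leaving out 1 library turned the sign of *Myl4* (-0.13 to 0.042), *Actc1* (-0.088 to 0.061), *Gja5* (-0.044 to 0.50), *Nkx2-5* (-0.0044 to 0.20), *Hand1* (-0.097 to 0.17), *Tbx5* (-0.0035 to 0.085) and *Irx4* (-0.067 to 0.082). The median log2 fold change of the members, 0.15, was 0.084 with the length slope, 0.081 with it in DESeq2, 0.094 without the 3 steep libraries and 0.095 to 0.16 without 1 library. With a replicate block it was 0.15 and 0 members were called, with 21 calls over all genes against 13. Same-numbered embryos correlated by 0.020 to 0.64, and 5 of 12 embryos correlated best with their own number. Since 1 of the pairs was under 0.1 and the labels give the numbers no meaning, they were not taken as pairs. The causes were not tested. Depth was lowest for *Nppb*, *Hand1* and *Nkx2-5*, with as few as 8, 14 and 15 counts.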

Other observations

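Of 10 hepatocyte genes, 9 had lower estimates in M-Z- embryos, with a median log2 fold change of -0.26, 0 called by edgeR and 0 at an unadjusted p below 0.05, where 6.7% of all genes lay. *Alb* and *Afp*, the most abundant of them by TPM, had log2 fold changes of -0.30 and -0.17, and the summed CPM was 3851 to 7746 in M-Z+ and 2905 to 7249 in M-Z- embryos. Of 9 neural genes, 8 had lower estimates, with a median of -0.14. Of these *Nefl* (-0.24), *Stmn2* (-0.21) and *Tubb3* (-0.24) had an unadjusted p below 0.05 and adjusted p = 0.526, 0.665 and 0.744 by edgeR, and 2 of the 9 had groups that did not overlap, against 0.574% of all tested genes. Of 10 erythroid genes, 8 had lower estimates, with a median of -0.15. Embryonic globin *Hbb-y* had 0.36 and adult *Hbb-bs* -0.12, and *Klf1* (-0.32) had an unadjusted p below 0.05. Of 8 members listed as markers of heart muscle cells, 6 had higher estimates, with a median of 0.21. Their summed CPM was 243.6 to 304.5 in M-Z+ and 233 to 366.4 in M-Z- embryos. Of these sums, *Myl4* gave 68.8 to 123.4 CPM in M-Z+ and 84.8 to 105.1 CPM in M-Z- embryos. How far the 8 are restricted to the heart was not tested. Whether the share of a tissue in the embryo moved with the heart genes was not tested.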
